A study of Homo sapiens with 12 samples.

Results

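Cytochrome P450 enzymes (CYP genes) and the glucuronosyltransferases of the UGT1A and UGT2 families were followed through tumours of Huh-7 cells treated with a kinase inhibitor, radiation or both. The genes were taken by symbol: CYP followed by a digit, UGT1A or UGT2, with the cholesterol synthesis gene CYP51A1 left out. This gave 74 of the 19988 genes in the table, 55 CYP and 19 UGT genes, of which 41 (30 CYP and 11 UGT) had enough reads to be tested. Huh-7 is an established human hepatocellular carcinoma line, grown here as subcutaneous xenografts in BALB/c nude mice aged 6 weeks, and treatment began at a mean tumour volume of 150 to 200 mm3. There were 4 groups of 3 libraries. The CS2164 group received CS2164, an oral kinase inhibitor also known as chiauranib, at 10 mg/kg per day by gavage. The IR group received 2 Gy per day in 10 fractions, the CS2164_IR group received both treatments, and the control group received the solvent. All mice were anaesthetised with sodium pentobarbital ahead of radiation, per the labels. Nude mice lack a thymus and so most T cells. Each tumour derives from a single cell line, and the cell line label gives Huh-7 throughout although Huh-8, Huh-9 and Huh-10 stand in the titles of the 3 treated groups.

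CYP enzymes are haem proteins, most of them in the endoplasmic reticulum and a few in mitochondria, that insert an oxygen atom into drugs, steroids, bile acid precursors, vitamins or fatty acids with electrons from a reductase. UGT enzymes then join glucuronic acid to the oxidised or other suitable molecule, so that it can leave in bile or urine. The normal adult liver is rich in both families, and liver cancer lines in culture are known to lose much of the drug-metabolising part.

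The libraries held 12886607 to 16890346 counts, so that a count of 3, the limit that a count of 0 allows, corresponds to 0.178 to 0.233 CPM (counts scaled to library size). These limits cover counting error only. Of 16 hepatocyte and liver cancer cell markers all 16 had reads, and their summed share of all counts was 5.83% to 7.97% in CS2164, 4.95% to 5.51% in IR, 5.55% to 8.06% in CS2164_IR and 6.96% to 7.88% in control. Markers of host-type cells were sparse: the 6 endothelial genes took at most 0.00121% of any library, with KDR at 0 throughout, and the 8 macrophage and lymphoid genes at most 0.00864%. Of these 8 genes LYZ reached 1256 reads in a library and each other gene at most 25. Reads of mouse cells could enter such values, since their handling is not given in the sources used here. CS2164 replicate 1 and control replicate 2 were the least like their mates (mean Spearman correlations of 0.973 and 0.979). Among the 41 tested CYP and UGT genes, CS2164 replicate 1 was the lowest library for 17 (41.5%, against 26.3% of all tested genes) and CS2164_IR replicate 1 the highest for 11 (26.8%, against 10.6%). The summed level of all 74 members was 283 FPKM (reads scaled to gene length and library size) in CS2164 replicate 1. It was 499 FPKM in CS2164_IR replicate 1, while the other 10 libraries lay between 349 and 454 FPKM. The labels do not say whether the 3 libraries of a group are separate mice, so p-values measure the spread between these libraries only.

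A few members supplied most of the transcripts. UGT2B11 (ENSG00000213759, chromosome 4, 69199951 to 69214731, GRCh38) averaged 148.8 FPKM over the 12 libraries and UGT2B4, which acts on bile acids, 72.1 FPKM. Together they made 54.95% of the summed FPKM of all members, and the UGT2 family as a whole made 63.6%. The mitochondrial sterol hydroxylase CYP27A1 came next at 41.5 FPKM. UGT2A3 followed at 20.2, the drug enzyme CYP3A5 at 17.2, the leukotriene and fatty acid hydroxylase CYP4F3 at 15.5 and the retinoic acid hydroxylase CYP26B1 at 14.9 FPKM. Those 7 genes held 82.2% of the summed level. Another 15 members averaged from 1 to under 10 FPKM, among them CYP2J2 at 9.80, CYP4F12 at 8.58, UGT2B15 at 5.69, CYP4V2 at 5.32 and CYP2R1 at 4.73 FPKM. The order of UGT2B11, UGT2B4 and CYP27A1 was the same in the means of all 4 groups, whereas UGT2A3, CYP4F3 and CYP26B1, next to each other in the CS2164 group, lay within 1 SD of each other there.

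**Figure D1:**
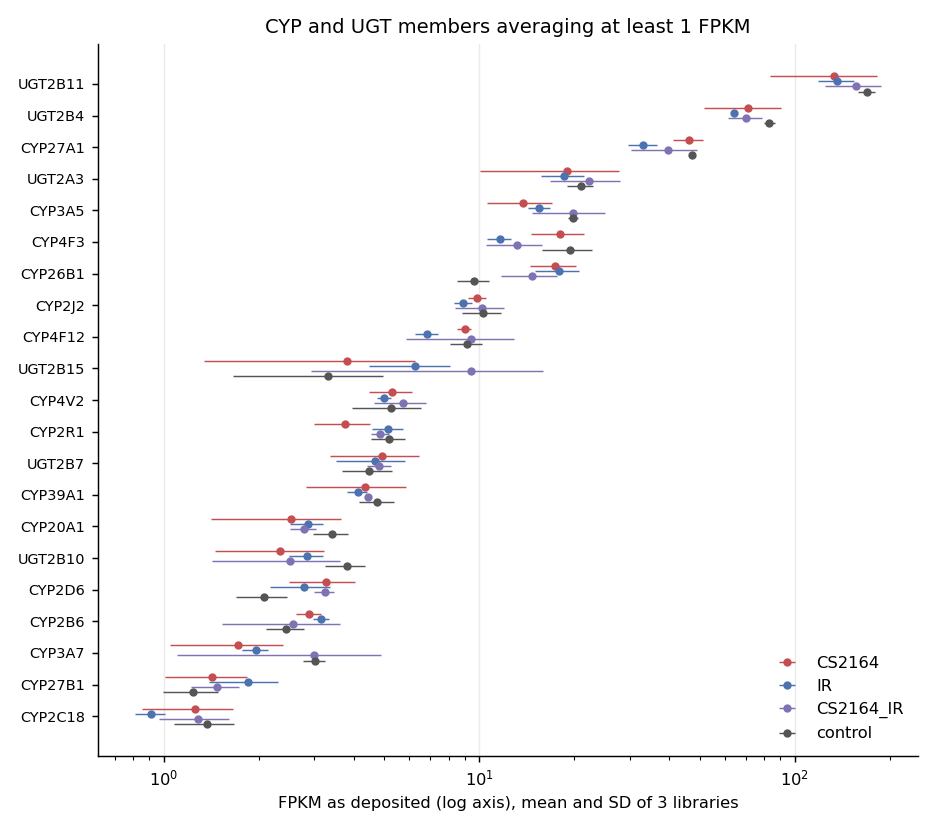
Mean FPKM with SD over 3 libraries, on a log axis, for 21 CYP and UGT genes that averaged at least 1 FPKM, by group. UGT2B11 at 148.8 FPKM and UGT2B4 at 72.1 FPKM stand above the rest, and for CYP26B1 the control mean lies to the left of all 3 treated groups.

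Most of the enzymes that define adult liver metabolism were close to absent. The 33 members that were not tested included CYP3A4, the main drug oxidase of adult liver, with 0, 5 and 0 reads in the CS2164 libraries, 7, 4 and 5 in IR, 16, 5 and 6 in CS2164_IR and 8, 7 and 14 in control. CYP7A1, the rate-limiting enzyme of bile acid synthesis, had at most 5 reads in a library, CYP17A1, which makes androgen precursors, at most 3 reads, and CYP26A1, the liver's other retinoic acid hydroxylase, at most 4 reads. The caffeine-oxidising CYP1A2 reached 6 reads, CYP1B1, which oxidises oestrogens, 12 reads, and UGT1A9, which conjugates phenolic drugs, 14 reads. CYP24A1, the vitamin D inactivating enzyme, had 0 reads in all 12 libraries, as did CYP4F22, CYP4F8, CYP11B1, CYP11B2, CYP2A13 and UGT2A2. The other 26 untested members had at least 1 read and at most 24 in any library, and differences between groups were not tested in them. Some were separated at these few reads, and the number separated in each direction was not counted. All 3 CS2164 libraries of CYP3A4 lay below the control libraries. So did those of the read-through gene CYP3A7-CYP3A51P, named after its values were seen. It had 0, 0 and 1 reads in CS2164 and 4, 4 and 6 in control. Of the short stretches of its transcript 96.4% occur in other genes, most of all in CYP3A7, so its reads may be shared. UGT1A3, named in the same way, was separated in the other direction. It had 0.0654, 0.361 and 0.126 CPM in CS2164 and 0, 0 and 0.0621 in control. The closest libraries, CS2164 replicate 1 and control replicate 3, had 1 read each.

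The treatments left most of the family without a change that passed the test. In this test edgeR's quasi-likelihood model was fitted to all 12 libraries, and a gene passed at an adjusted p under 0.05 over 13521 genes. With CS2164 against control 1 of the 41 tested members rose and 0 fell, where 19.7% of all tested genes passed (10.4% higher and 9.32% lower, or 1409 and 1260 genes, against 1131 and 1543 under upper-quartile scaling). With IR against control 1 rose and 0 fell, against 0.436% of all genes (0.207% higher and 0.229% lower), and both calls were CYP26B1. With CS2164_IR against control 0 members passed, where 0.192% of all genes passed (0.148% higher and 0.0444% lower). There 6 of the 41 members had an unadjusted p under 0.05, beside 2218 of the 13521 genes. In CS2164_IR against CS2164 2 rose, CYP2E1 and CYP2C19, and 0 fell, where 9.69% of all genes passed (3.78% higher and 5.91% lower, or 511 and 799 genes, against 750 and 614 under upper-quartile scaling). In CS2164_IR against IR 0 members and 0% of all genes passed, and DESeq2 also called 0 members. An unadjusted p under 0.05 in edgeR was held there by 3 of the 41 members, beside 331 of the 13521 genes. In the interaction, the change with both treatments minus the sum of the changes with each alone, 0 members and 0% of all genes passed in edgeR. Its unadjusted p was under 0.05 for 5 of the 41 members, beside 2732 of the 13521 genes. DESeq2 called 2 members in the interaction, CYP26B1 and CYP3A5. These tumours are bulk samples, so that fewer cells of a type and less RNA per cell cannot be told apart.

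**Figure D2:**
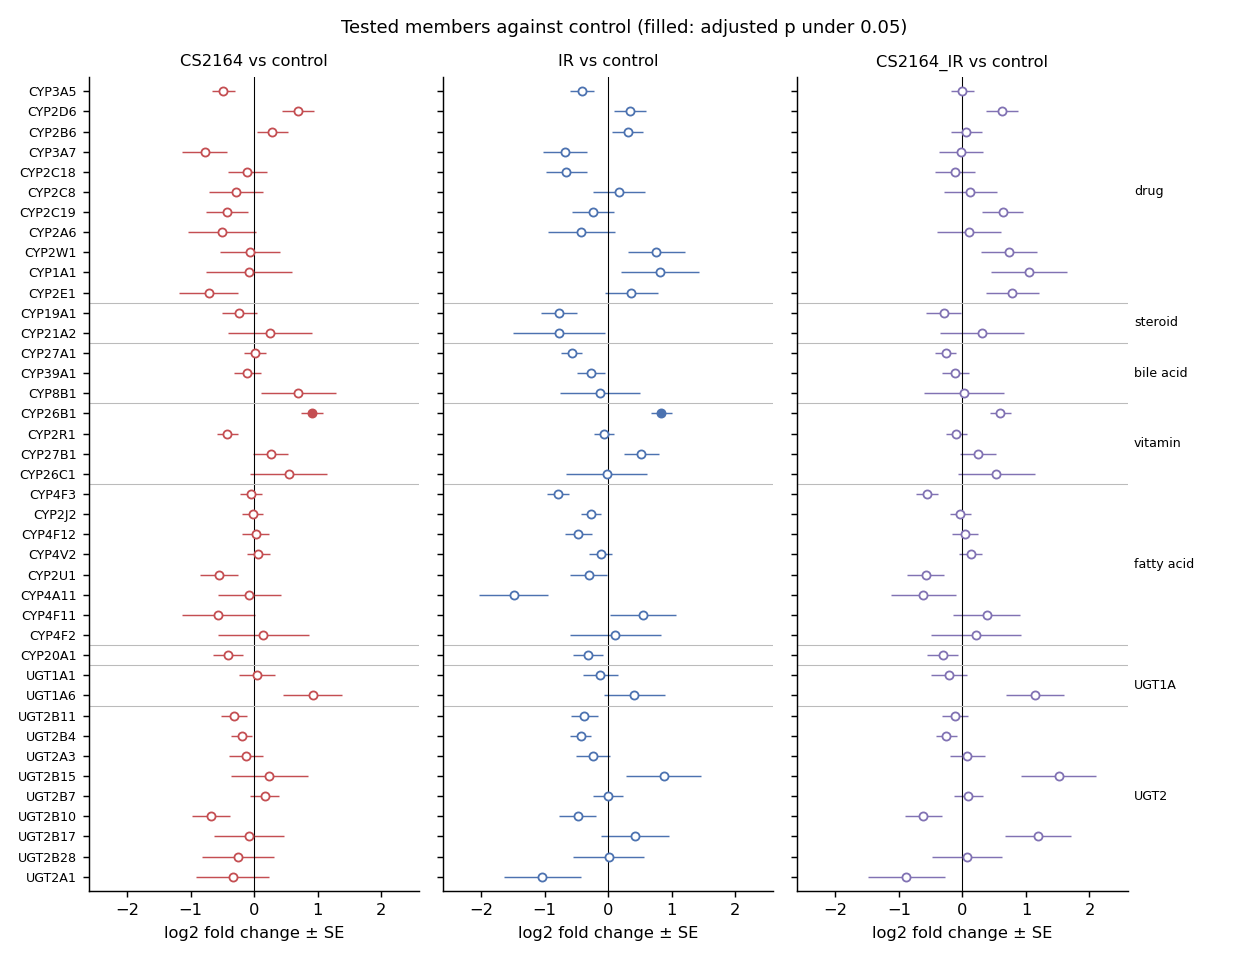
Log2 fold change with its standard error for 40 of the 41 tested members against control, one panel for each treated group, ordered by role and by mean FPKM within a role; filled points passed at an adjusted p under 0.05. CYP26B1 is the one filled point in the CS2164 panel (0.91) and in the IR panel (0.84), and no point is filled for CS2164_IR.

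CYP26B1 (ENSG00000003137, chromosome 2, 72129238 to 72148038, minus strand) clears retinoic acid by hydroxylation, and so limits how much of this vitamin A hormone reaches its nuclear receptors. It had 99.7, 93.8 and 69.2 CPM in the CS2164 libraries, 78.1, 72.7 and 99.05 in IR, 57.2, 81.1 and 73.3 in CS2164_IR and 49.3, 42.4 and 48.2 in control. Every library of the 3 treated groups lay above every control library, and the treated groups overlapped one another. The log2 change against control was 0.91 ± 0.17 with CS2164 (1.88-fold, adjusted p = 0.00481), 0.84 ± 0.17 with IR (1.79-fold, adjusted p = 0.040) and 0.60 ± 0.17 with CS2164_IR (1.51-fold, adjusted p = 0.121, which did not pass, and 0.0477 without CS2164 replicate 1). The interaction was -1.15 ± 0.24 (adjusted p = 0.0839), and it passed without the filter on low counts (0.0307), with the trend over GC content and transcript length taken out of every library (0.0441) and in DESeq2 (0.00312). The value with both treatments was thus below the sum of the 2 single changes, by a difference that did not pass here. Between CS2164_IR and CS2164 the change was -0.31 ± 0.17 (adjusted p = 0.241), and between CS2164_IR and IR -0.24 ± 0.17 (adjusted p = 1).

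The 3 comparisons share the control libraries. The rise of CYP26B1 with CS2164 passed in all 12 fits that left out 1 library, at 0.80 to 1.05. Its rise with IR passed in 3 of those 12 fits (0.69 to 0.92), and the call ended without any 1 of the IR or control libraries, or without CS2164 replicate 2, CS2164_IR replicate 2 or CS2164_IR replicate 3. CYP26B1 shares no exon with another annotated gene, and none of the 50-base stretches of its transcript occurs in another gene. The 8 fibroblast and pericyte markers, all with reads, held 0.00507% to 0.00798% of all counts in CS2164, 0.00573% to 0.00894% in IR, 0.00614% to 0.0072% in CS2164_IR and 0.00373% to 0.00437% in control, so that their summed share too was higher in every treated library. Within this list COL1A2 reached 1023 reads in a library and each other gene at most 173, so the sum rests largely on COL1A2. The part of these markers in the result was not tested.

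The promoter of CYP26B1 is shown because this gene carries both calls against control. It runs from 250 bases before to 50 bases after the transcription start (RefSeq, GRCh38.p14, chr2:72147813-72148112, minus strand), and capitals mark the single TATAAA.
CYP26B1: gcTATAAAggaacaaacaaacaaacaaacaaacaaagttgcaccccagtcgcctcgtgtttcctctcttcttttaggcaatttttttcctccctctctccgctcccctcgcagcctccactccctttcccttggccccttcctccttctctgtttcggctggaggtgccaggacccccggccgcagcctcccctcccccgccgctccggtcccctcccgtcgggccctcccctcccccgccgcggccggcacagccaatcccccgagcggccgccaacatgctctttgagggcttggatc
The TATAAA begins at position -248 from this RefSeq start, far from the place just before a start where such a box positions transcription. In GENCODE the gene starts at 72148038, inside this window and nearer to the TATAAA. Which start these tumours use was not tested. TATAAA stood on either strand of 14 of the 31 tested members' promoters and of 11.5% of all 35116 promoters searched. Neither AGGTCA nor AGTTCA, half-sites of the kind that nuclear receptors read, occurs in this window on either strand.

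**Figure D3:**
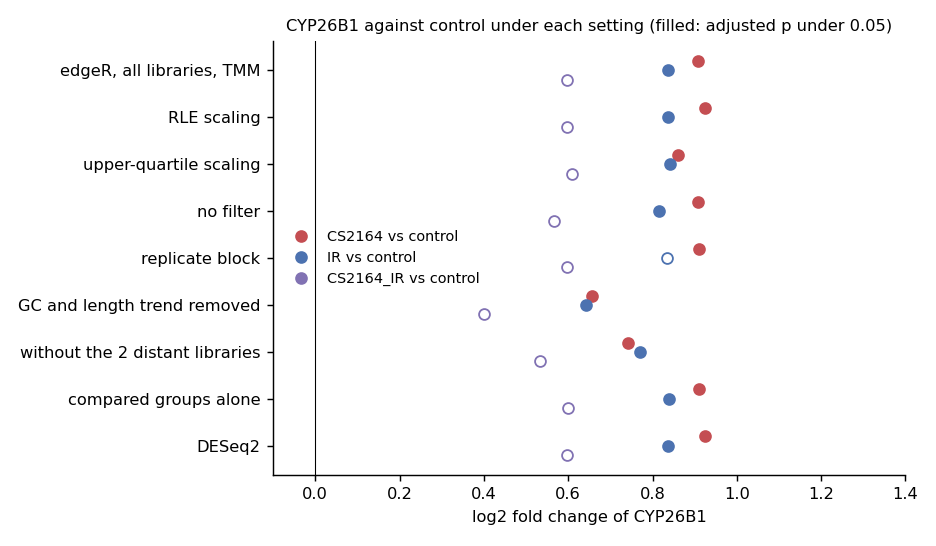
Log2 fold change of CYP26B1 against control under each processing setting, 1 point for each treated group; filled points passed at an adjusted p under 0.05. The CS2164 points are filled in every row, the IR point is open with the replicate number as a block, and the CS2164_IR points are open in every row.

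The other tested vitamin enzymes did not pass. CYP2R1, which carries out the liver step of vitamin D activation, had 14.4, 17.5 and 20.4 CPM in CS2164, 23.7, 19.5 and 23.7 in IR, 21.2, 22.6 and 21.5 in CS2164_IR and 25.2, 21.1 and 23.7 in control. Its CS2164 libraries were all below the control libraries, at -0.42 ± 0.17 (adjusted p = 0.079), and this value shrank to -0.12 once the GC and length trend was taken out. CYP27B1, which completes vitamin D activation, averaged 4.87 ± 1.62 CPM in CS2164, 5.83 ± 1.37 in IR, 4.82 ± 0.736 in CS2164_IR and 4.08 ± 0.805 in control, and the groups overlapped. CYP26C1, another retinoic acid hydroxylase, stayed under 0.8 CPM in every library.

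Genes around retinoic acid that are not CYP enzymes were looked up as well. ALDH1A1, an aldehyde dehydrogenase that makes retinoic acid, fell with CS2164: it had 664, 931 and 924 CPM in CS2164 against 1229, 1585 and 1225 in control, a log2 change of -0.68 ± 0.17 (adjusted p = 0.0121). That call ended once the GC and length trend was taken out (adjusted p = 0.126), with the compared groups alone (0.0698), without CS2164 replicate 1 and control replicate 2, the 2 distant libraries (0.0551), and without control replicate 2 (0.0578). ALDH1A1 was chosen after its values were seen. The retinoic acid receptors, looked up in the same way, RARA, RARB and RARG did not pass with CS2164 (0.24 ± 0.16, 0.05 ± 0.47 and -0.30 ± 0.47).

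Among drug-metabolising CYP genes, 12 of 21 were tested. With CS2164 against control 0 of the 12 passed, 2 lay above 0 and 10 below, and their median log2 change was -0.36, beside -0.01 for all tested genes. In CS2164_IR against CS2164 9 lay above 0 and 3 below, with 2 rises and a median of 0.68, beside 0.04 for all genes. Over the other settings, leave-one-out fits included, these medians stayed between -0.45 and -0.16 and between 0.35 and 0.80. The 2 comparisons share the CS2164 libraries, so that a low value there moves their medians in opposite directions, and CS2164 replicate 1 was the lowest library for 17 of the 41 members. With IR against control 7 of the 12 lay above 0 (median 0.10, and -0.11 to 0.17 when each library was left out), and with CS2164_IR against control 9 did (median 0.19, and 0.17 to 0.46 in such leave-one-out fits), with no call in either.

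CYP3A5 (ENSG00000106258, chromosome 7, 99648194 to 99680026), a drug oxidase with much the same substrates as CYP3A4, was the most abundant of them. It had 114, 135 and 170 CPM in CS2164, 153, 134 and 152 in IR, 253, 141 and 192 in CS2164_IR and 194, 195 and 197 in control. All CS2164 and all IR libraries were below all control libraries, and the CS2164_IR libraries spread across them. The log2 change was -0.48 ± 0.18 with CS2164 (adjusted p = 0.067, and 0.0473 with upper-quartile scaling), -0.41 ± 0.18 with IR (adjusted p = 0.281) and -0.00 ± 0.18 with CS2164_IR (adjusted p = 0.999). Its interaction was 0.90 ± 0.26 (adjusted p = 0.104, and 0.0338 in DESeq2), and 0.67 without CS2164_IR replicate 1. CYP3A7, the form of fetal liver and the neighbour of CYP3A5, was spread likewise: 4.45, 5.41 and 8.82 CPM in CS2164, 6.98, 6.99 and 5.98 in IR, 18.4, 4.70 and 8.91 in CS2164_IR and 10.7, 11.8 and 9.57 in control. Its changes were -0.78 ± 0.35 with CS2164 (adjusted p = 0.124), -0.68 ± 0.35 with IR (0.351) and -0.02 ± 0.34 with CS2164_IR (0.983). Reads of CYP3A7 may be shared, since 75.3% of its 50-base stretches occur in other genes, most of all in the read-through gene CYP3A7-CYP3A51P.

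The promoters of CYP3A5 and CYP3A7 are shown side by side because in both genes the CS2164 and IR means lay below the control mean, and nuclear receptors that sense drugs are known to act on CYP3A promoters through paired half-sites. Both are RefSeq sequences of GRCh38.p14 on the minus strand, at chr7:99679947-99680246 and chr7:99735147-99735446. Capitals mark an everted repeat, TGAACT and AGGTCA with any 6 bases between them, in CYP3A5 and the half-site AGGTCA in CYP3A7.
CYP3A5: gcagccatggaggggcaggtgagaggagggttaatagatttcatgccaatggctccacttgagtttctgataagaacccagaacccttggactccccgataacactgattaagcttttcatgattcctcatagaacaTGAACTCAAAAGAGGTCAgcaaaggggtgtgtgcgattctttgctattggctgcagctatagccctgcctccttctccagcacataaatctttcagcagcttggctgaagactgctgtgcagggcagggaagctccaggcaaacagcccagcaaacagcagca
CYP3A7: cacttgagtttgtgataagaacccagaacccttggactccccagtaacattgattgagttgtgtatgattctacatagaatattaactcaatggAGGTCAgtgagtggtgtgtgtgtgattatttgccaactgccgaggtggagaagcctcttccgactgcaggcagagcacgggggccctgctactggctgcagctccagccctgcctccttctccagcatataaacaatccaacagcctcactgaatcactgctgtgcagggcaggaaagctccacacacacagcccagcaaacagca
The everted repeat begins at -113 in CYP3A5 and contains both AGGTCA and, on the other strand, AGTTCA. With its letters matched exactly, it stood on either strand of 3 of all 35116 promoters searched (0.00854%), and of 1 of the 31 tested members with a promoter. AGGTCA begins at -156 in CYP3A7, and it stood in 13.8% of all promoters and in 10 of the 31. In CYP3A7 the letters TTAACT stand 6 bases before this AGGTCA, and they differ from TGAACT in 1 letter. Repeats with such a mismatch were not searched for, so the count does not cover them. An alignment of the 2 windows held 204 identical, 38 mismatched and 116 gapped positions, an identity of 57%. A match is a description of letters, and binding was not measured.

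CYP2C19 and CYP2E1 were low in abundance and gave the calls between CS2164_IR and CS2164. CYP2E1, which oxidises ethanol and paracetamol (ENSG00000130649, chromosome 10, 133520406 to 133561220), had 2.23, 1.83 and 1.70 CPM in CS2164_IR, against 0.785, 0.722 and 0.504 in CS2164. These groups did not overlap, and the log2 change was 1.504 ± 0.44 (adjusted p = 0.0393). It passed in 6 of the 12 fits without 1 library, at 1.33 to 1.64 over the 12, and did not pass without any 1 of the CS2164_IR libraries, without CS2164 replicate 2 or 3, or without control replicate 1. Its IR libraries had 2.28, 0.964 and 1.01 CPM and its control libraries 0.994, 0.880 and 1.43 CPM, so that all CS2164_IR libraries lay above and all CS2164 libraries below the control libraries, while IR overlapped them. Against control the change did not pass with CS2164_IR (0.79 ± 0.42, adjusted p = 0.348) or CS2164 (-0.72 ± 0.46, adjusted p = 0.284). CYP2C19, which oxidises omeprazole and activates clopidogrel (ENSG00000165841, chromosome 10, 94762681 to 94853205), had 10.4, 4.64 and 6.15 CPM in CS2164_IR, against 1.96, 3.83 and 4.28 in CS2164. Its change was 1.06 ± 0.33 (adjusted p = 0.0462). Without CS2164_IR replicate 1 it was 0.68 (adjusted p = 0.228) and without CS2164 replicate 1 it was 0.79 (0.113), and 4 of the 12 fits without 1 library passed. The call ended likewise without CS2164 replicate 2, IR replicate 2 or 3, CS2164_IR replicate 3, or control replicate 1 or 3 (0.0564 to 0.0942). The call also ended with the compared groups alone (0.114) and without the 2 distant libraries (0.0757). Of its 50-base stretches 83.2% occur in other genes, most of all in the read-through gene AL583836.1, which was counted with 0 reads.

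**Figure D4:**
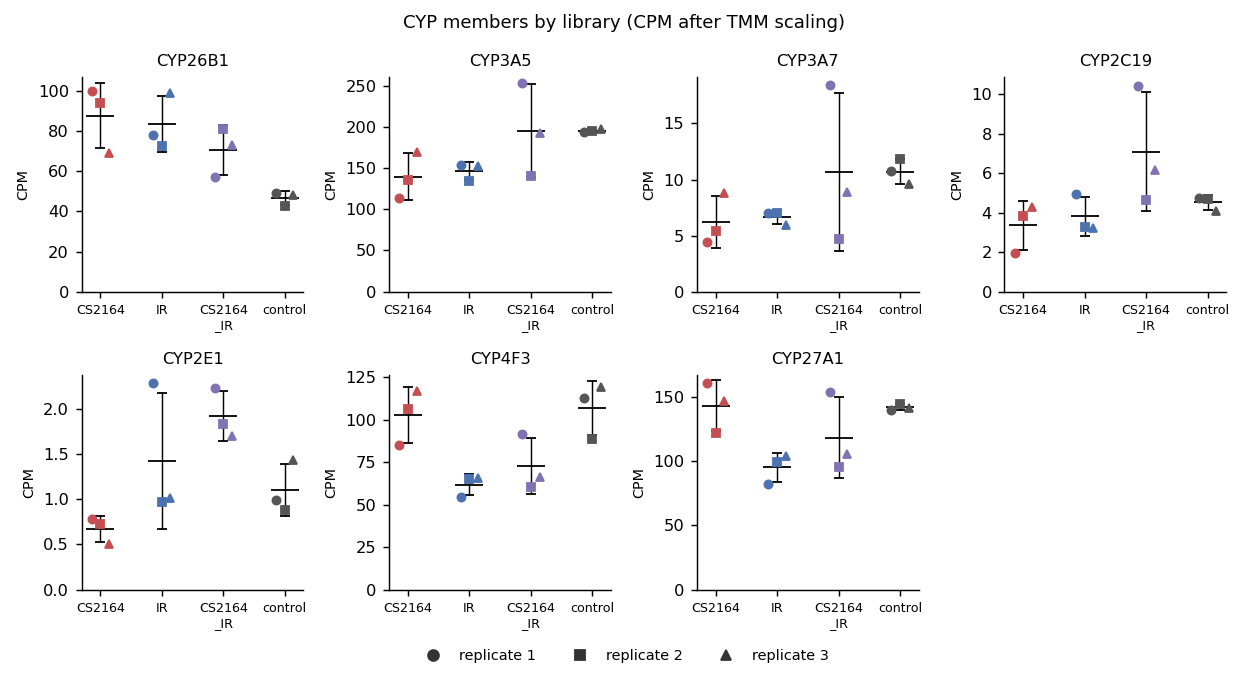
CPM of 7 CYP genes in each library by group, with the mean and SD of 3 libraries as a bar; each panel starts at 0 and has its own scale. CS2164_IR replicate 1 is the highest library for CYP3A5 (253 CPM), CYP3A7 (18.4) and CYP2C19 (10.4), and all 3 treated groups lie above control only for CYP26B1.

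Other drug enzymes went different ways or were too low to order. CYP2D6, which oxidises codeine and many antidepressants, had 10.5, 7.15 and 6.30 CPM in CS2164, 5.01, 5.97 and 7.85 in IR, 8.28, 6.76 and 7.72 in CS2164_IR and 3.76, 5.72 and 5.28 in control. The CS2164 and the CS2164_IR libraries were all above the control libraries, with a change of 0.70 ± 0.25 for CS2164 (adjusted p = 0.0583, and 0.0326 in DESeq2 and 0.0492 with the trends removed) and of 0.62 ± 0.25 for CS2164_IR (adjusted p = 0.241). Without CS2164 replicate 1 the first of these was 0.44 (adjusted p = 0.241). Of the 50-base stretches of CYP2D6 40.7% also occur in other genes, most of all in its near copy CYP2D7. CYP2B6, a target gene of the drug-sensing receptor CAR, averaged 11.2 ± 1.48 CPM in CS2164, 11.4 ± 0.553 in IR, 9.52 ± 3.70 in CS2164_IR and 9.19 ± 1.34 in control, with no call. Its CS2164 and its IR libraries all lay above the control libraries (0.28 ± 0.25 and 0.31 ± 0.25). CYP1A1, the classic target of the aryl hydrocarbon receptor, stayed under 1 CPM in every library. Its CS2164_IR libraries all lay above the control (1.05 ± 0.61) and the CS2164 libraries (1.13 ± 0.61), with no call.

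Of 8 tested fatty acid and eicosanoid enzymes 0 passed with IR, 2 lay above 0 and 6 below, and the median was -0.29, beside -0.01 for all genes; with CS2164 the median was -0.04 and with CS2164_IR 0.00. The IR median lay between -0.38 and -0.17 over the other settings. CYP4F3 (ENSG00000186529, chromosome 19, 15640897 to 15662825), which hydroxylates leukotrienes and long-chain fatty acids, had 85.0, 106 and 117 CPM in CS2164, 54.8, 64.97 and 65.7 in IR, 91.7, 60.1 and 66.3 in CS2164_IR and 113, 88.7 and 119 in control. All IR libraries lay below all CS2164 and all control libraries. Its change with IR was -0.79 ± 0.17 (adjusted p = 0.0527), and it passed without the filter (0.0159), with the trends removed (0.0131), with the compared groups alone (0.0254), in DESeq2 (0.00463) and without the 2 distant libraries (-0.91, 0.00381). With CS2164_IR it was -0.56 ± 0.17 (adjusted p = 0.146, and 0.0208 without the 2 distant libraries) and with CS2164 -0.06 ± 0.17 (0.854). CYP4A11, a fatty acid hydroxylase named after its values were seen, had 0.508, 0.904 and 1.58 CPM in IR and 1.85, 1.76 and 4.72 in control, with a log2 difference of -1.49 ± 0.54 that did not pass (adjusted p = 0.202).

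CYP4F12, a related hydroxylase, had 47.02, 48.4 and 46.6 CPM in CS2164, 30.1, 33.8 and 36.8 in IR, 67.5, 28.97 and 47.6 in CS2164_IR and 47.6, 42.2 and 50.1 in control. Its IR libraries too were all below control, at -0.47 ± 0.21 (adjusted p = 0.290). The epoxygenase CYP2J2, which makes signalling epoxides from arachidonic acid, averaged 30.4 ± 1.28 CPM in CS2164, 25.5 ± 1.80 in IR, 30.1 ± 4.76 in CS2164_IR and 30.8 ± 5.48 in control. CYP4V2, a fatty acid hydroxylase whose loss causes Bietti crystalline dystrophy of the retina, averaged 53.4 ± 6.37 CPM in CS2164, 47.1 ± 3.04 in IR, 56.0 ± 11.8 in CS2164_IR and 51.2 ± 11.0 in control. Neither passed, and in both the treated groups overlapped control. CYP4F2, which also degrades vitamin K, was near the counting limit, with group means of 0.476 to 0.546 CPM.

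Bile acid and steroid enzymes gave no call, and the 2 most abundant were lowest with IR. CYP27A1 (ENSG00000135929, chromosome 2, 218781749 to 218815293) starts the acidic route of bile acid synthesis. It had 161, 122 and 147 CPM in CS2164, 82.4, 99.5 and 104 in IR, 154, 95.6 and 105 in CS2164_IR and 140, 144.5 and 141 in control. The IR libraries were all below the CS2164 and the control libraries, and 2 of the 3 CS2164_IR libraries lay near the IR level. The change with IR was -0.58 ± 0.17 (adjusted p = 0.122), and -0.75 with the GC and length trend taken out, where it passed (0.00894). With CS2164 it was 0.01 ± 0.17 and with CS2164_IR -0.26 ± 0.17. CYP39A1, which handles a brain-derived oxysterol, averaged 13.8 ± 4.46 CPM in CS2164, 12.3 ± 0.823 in IR, 13.8 ± 0.634 in CS2164_IR and 14.9 ± 2.21 in control. CYP8B1, which sets the share of cholic acid, stayed at or below 1.11 CPM.

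CYP19A1, the aromatase that turns androgens into oestrogens, averaged 8.33 ± 2.29 CPM in CS2164, 5.69 ± 1.46 in IR, 8.00 ± 2.35 in CS2164_IR and 9.79 ± 2.29 in control. The IR libraries lay below the control libraries, at -0.78 ± 0.28 (adjusted p = 0.202). CYP21A2, the adrenal hydroxylase, was near the counting limit with group means of 0.420 to 0.845 CPM, and its exons overlap those of TNXB on the other strand. The library protocol does not mark the strand, so reads of overlapping genes cannot be told apart. The IR group was also the one whose share of counts in the 16 hepatocyte and liver cancer cell markers lay below control in every library, and the part of that in the lower CYP27A1, CYP4F3, CYP19A1, UGT2B11 and UGT2B4 values was not tested. CYP20A1, a member with no assigned main substrate, averaged 27.5 ± 11.4 CPM in CS2164, 29.2 ± 3.21 in IR, 29.4 ± 3.16 in CS2164_IR and 36.5 ± 5.73 in control, with 14.3 CPM in CS2164 replicate 1.

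Across all 41 members the libraries of 2 groups were separated in more genes downward than upward with IR. Against control, 4 members were higher in all IR libraries and 12 lower, where 13% and 13.3% of all tested genes were separated in those directions (26.3% in all). With CS2164 5 were higher and 6 lower, against 18.6% and 17.8% of all genes (36.4% in all), and with CS2164_IR 6 were higher and 1 lower, against 13% and 13.3% (26.4% in all). In CS2164_IR against CS2164 5 were higher and 1 lower, against 16.7% and 15.5% (32.3% in all), and in CS2164_IR against IR 2 were higher and 0 lower, against 4.62% and 4.89% (9.5% in all). The members' median log2 change was -0.08 with CS2164, -0.13 with IR and 0.07 with CS2164_IR, beside -0.01, -0.01 and 0.00 for all genes. The tested members had a median GC content of 43.5%, against 48.3% for all tested genes. This did not hold for the CYP genes among them (49.2%), while the UGT2 genes were at 39%. Once the GC and length trend was taken out the members' CS2164 median turned to 0.14. The median over CS2164_IR against CS2164 was 0.06, and -0.02 with those trends removed.

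The glucuronosyltransferases gave no call in any comparison. Of the UGT1A genes, which use separate first exons with shared later exons so that reads of the shared part cannot be assigned, 2 of 9 were tested. UGT1A1, the bilirubin conjugating enzyme, averaged 3.95 ± 1.11 CPM in CS2164, 3.52 ± 0.350 in IR, 3.29 ± 0.841 in CS2164_IR and 3.84 ± 0.537 in control, with overlap throughout. UGT1A6, which conjugates simple phenols such as paracetamol, averaged 1.11 ± 0.115 CPM in CS2164, 0.779 ± 0.24 in IR, 1.29 ± 0.373 in CS2164_IR and 0.581 ± 0.257 in control. Its CS2164 and CS2164_IR libraries were all above the control libraries, at 0.92 ± 0.47 (adjusted p = 0.170) and 1.15 ± 0.46 (adjusted p = 0.234).

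UGT2 genes form a cluster on chromosome 4, and 9 of 10 were tested. UGT2B11 had 201, 347 and 418 CPM in CS2164, 350.2, 290.3 and 287 in IR, 465, 305 and 339 in CS2164_IR and 418, 403 and 383 in control. The IR libraries were all below control, at -0.38 ± 0.21 (adjusted p = 0.393), while the CS2164 libraries spread over a range wider than that of any other group. Of its 50-base stretches 40.9% occur in other genes, most of all in its near copy UGT2B28. UGT2B4 had 133, 213 and 203 CPM in CS2164, 155, 152 and 158.5 in IR, 205, 154 and 168 in CS2164_IR and 194.5, 224 and 210.3 in control. It showed the same separation of IR from control, at -0.43 ± 0.16 (adjusted p = 0.223). UGT2A3 averaged 59.7 ± 26.5 CPM in CS2164, 55.1 ± 9.21 in IR, 68.7 ± 18.9 in CS2164_IR and 65.1 ± 8.18 in control, with 29.1 CPM in CS2164 replicate 1 as the lowest value. UGT2B7, which conjugates morphine, averaged 11.4 ± 3.29 CPM in CS2164, 10.1 ± 2.35 in IR, 10.9 ± 1.09 in CS2164_IR and 10.2 ± 1.69 in control.

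The androgen-conjugating pair UGT2B15 and UGT2B17 varied widely between libraries. UGT2B15 had 3.07, 8.23 and 13.5 CPM in CS2164, 16.8, 10.3 and 11.5 in IR, 36.9, 11.5 and 12.2 in CS2164_IR and 7.74, 3.33 and 10.01 in control. The IR and the CS2164_IR libraries were all above the control libraries, with changes of 0.87 ± 0.59 (adjusted p = 0.494) and 1.51 ± 0.59 (adjusted p = 0.249), and the CS2164 libraries overlapped control (0.24 ± 0.60). UGT2B17 was chosen after its values were seen, and 27.8% of its 50-base stretches occur in other genes, most of all in UGT2B15. UGT2B17 had 6.13, 1.49 and 2.20 CPM in CS2164_IR and 1.85, 0.880 and 1.49 in control. In both genes CS2164_IR replicate 1 was far above its mates. The median of the 9 tested UGT2 genes was -0.20 with CS2164, -0.24 with IR and 0.07 with CS2164_IR; once the GC and length trend was taken out it turned to 0.34 with CS2164 and to 0.07 with IR, and without the 2 distant libraries to 0.02 with CS2164 and to -0.12 with CS2164_IR. UGT2 transcripts had a median GC content of 39%, lower than that of the tested CYP genes at 49.2%.

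**Figure D5:**
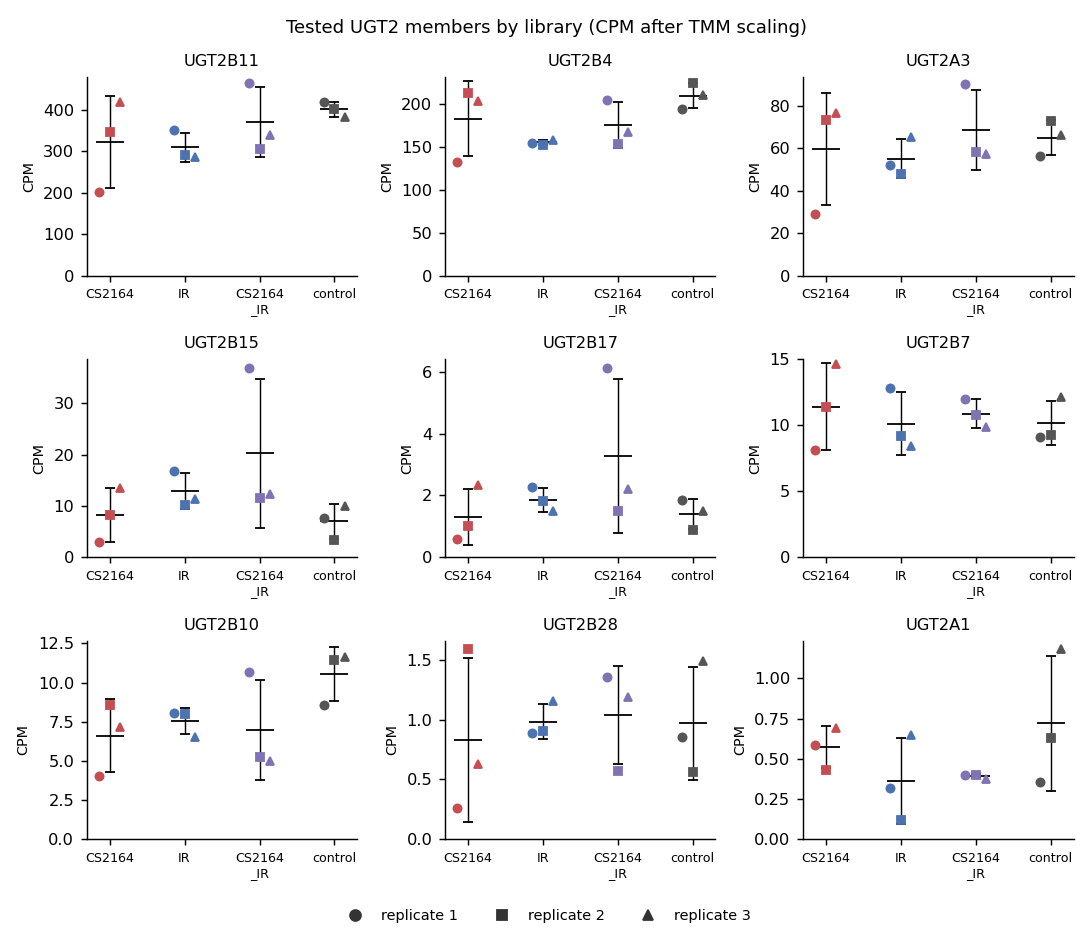
CPM of the 9 tested UGT2 genes in each library by group, with the mean and SD of 3 libraries as a bar; each panel starts at 0 and has its own scale. CS2164_IR replicate 1 reaches 36.9 CPM for UGT2B15 and 6.13 CPM for UGT2B17, and CS2164 replicate 1 is the lowest library for UGT2B11 (201 CPM) and UGT2A3 (29.1 CPM).

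Genes that supply or control these enzymes were read from 5 lists, of electron donors and haem supply, transcription factors, glucuronic acid supply, other bile acid enzymes, and other phase I and II enzymes. Of their 119 tested genes 8 rose and 17 fell with CS2164, a share of 21.0% beside 19.7% of all genes. With IR 0 rose and 3 fell (2.52%, beside 0.436% of all genes), and with CS2164_IR 0 rose and 1 fell (0.84%, beside 0.192%). In CS2164_IR against CS2164 1 rose and 9 fell (8.4%, beside 9.69%). The shares with CS2164 and in CS2164_IR against CS2164 were thus near those of all genes. Of 28 transcription factors 5 rose with CS2164 and 1 fell (21.4%). PPARA, the fatty acid receptor that drives CYP4A genes, had 82.4, 73.6 and 86.2 CPM in CS2164 against 45.6, 30.5 and 50.7 in control, a change of 0.94 ± 0.17 (adjusted p = 0.00455) that passed in every setting run. RXRA, the shared partner of the nuclear receptors, averaged 359 ± 38.2 CPM in CS2164 against 231 ± 25.8 in control, a change of 0.64 ± 0.14 (adjusted p = 0.0082) that ended with the trends removed (0.656) and with the compared groups alone (0.0604).

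Of these 28 factors 0 rose and 4 fell in CS2164_IR against CS2164 (14.3%, where 3.78% of all genes passed as higher and 5.91% as lower). PPARA averaged 38.8 ± 1.73 CPM in CS2164_IR and 80.8 ± 6.46 in CS2164, a change of -1.06 ± 0.17 (adjusted p = 0.00237), RXRA changed by -0.81 ± 0.14 (adjusted p = 0.00366) and HNF4A, the master regulator of hepatocyte genes, by -0.81 ± 0.16 (adjusted p = 0.0073), and these 3 calls held in every setting run. Both comparisons use the CS2164 libraries. With IR, NR1H4, the bile acid receptor FXR, had 31.3, 37.3 and 29.3 CPM in IR against 49.5, 73.8 and 64.6 in control, a change of -0.94 ± 0.20 (adjusted p = 0.046) that did not hold without any 1 of the IR or control libraries, CS2164 replicate 2 or CS2164_IR replicate 2 or 3. The pregnane X receptor NR1I2 (0.28 ± 0.30 with CS2164, 0.03 ± 0.30 with IR, 0.39 ± 0.30 with CS2164_IR), the constitutive androstane receptor NR1I3 (-0.12 ± 0.40, -0.46 ± 0.41 and 0.58 ± 0.38 in the same order) and the aryl hydrocarbon receptor AHR (-0.07 ± 0.21, 0.30 ± 0.21 and 0.29 ± 0.21) gave no call against control.

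Of 52 other phase I and II enzymes 1 rose and 11 fell with CS2164 (23.1%, where 10.4% of all genes passed as higher and 9.32% as lower). Their median with CS2164 was -0.35, and it lay between -0.46 and -0.16 over the other settings. It was -0.34 with IR (-0.42 to -0.27) and -0.13 with CS2164_IR (-0.30 to -0.02). The glutathione transferase GSTO1 had 64.4 ± 5.59 CPM in CS2164 against 112 ± 33.4 in control, a change of -0.80 ± 0.18 (adjusted p = 0.0085), and the acetaldehyde dehydrogenase ALDH2 changed by -0.68 ± 0.16 (adjusted p = 0.0105). The GSTO1 call ended with the compared groups alone (0.0559), as did that of ALDH2 (0.0533), which also ended without the 2 distant libraries (0.0562) and without control replicate 2 (0.0585). With IR the alcohol dehydrogenases ADH5, at -0.72 ± 0.14 (adjusted p = 0.0374), and ADH6, at -1.04 ± 0.22 (adjusted p = 0.0421), fell. Each of these 2 calls ended without any 1 of the IR or control libraries, CS2164 replicate 2 or CS2164_IR replicate 2 or 3. With CS2164_IR the aldo-keto reductase AKR1B10, which reduces retinal among other carbonyls, averaged 74.9 ± 4.99 CPM against 157 ± 14.8 in control, a change of -1.07 ± 0.19 (adjusted p = 0.0223), which ended without CS2164_IR replicate 1 (0.0789), CS2164_IR replicate 3 (0.0974), control replicate 2 (0.105) or control replicate 3 (0.0951). CES1, a drug-cleaving carboxylesterase, was lower in CS2164_IR than in CS2164 by a change of -1.02 ± 0.18 (adjusted p = 0.00453) in every setting run. CES2, another carboxylesterase, fell in that comparison at -0.67 ± 0.19 (adjusted p = 0.0318), a call that ended without any 1 CS2164_IR library or without CS2164 replicate 1 or 2. The N-acetyltransferase NAT1 rose there at 0.70 ± 0.21 (adjusted p = 0.0447), a call that held in 5 of 20 other settings, 2 of them the fits without CS2164_IR replicate 2 or control replicate 2. The microsomal glutathione transferase MGST2 fell with CS2164 at -0.73 ± 0.18 (adjusted p = 0.0113), a call that ended without the 2 distant libraries (0.0848), without control replicate 2 (0.0698) and with the compared groups alone (0.0604).

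Of 18 electron donor and haem genes 1 rose and 2 fell with CS2164 (16.7%, beside 19.7% of all genes). The rise was that of CYB5R3, a cytochrome b5 reductase, at 0.50 ± 0.17 (adjusted p = 0.0477). It held in 5 of 20 other settings, in leave-one-out fits only without CS2164 replicate 2 or 3, and was 0.23 without CS2164 replicate 1 and -0.078 with the trends removed. UROS, an enzyme of haem synthesis, fell at -0.42 ± 0.13 (adjusted p = 0.0363), a call that held in 8 of 20 other settings and in leave-one-out fits only without CS2164 replicate 3, CS2164_IR replicate 1 or control replicate 1. POR, the reductase that feeds the microsomal CYP enzymes, did not pass, with 407, 281 and 276 CPM in CS2164 against 256, 257 and 244 in control (0.35 ± 0.15, adjusted p = 0.103). FDX1, the ferredoxin that feeds mitochondrial CYP enzymes such as CYP27A1, changed by -0.60 ± 0.18 (adjusted p = 0.0252), a call that ended with the trends removed (0.407), without the 2 distant libraries (0.1602), with the compared groups alone (0.0955), and without CS2164 replicate 1 (0.0514), CS2164 replicate 3 (0.0665) or control replicate 2 (0.135). FECH, which puts iron into haem, was lower in CS2164_IR than in CS2164 at -0.65 ± 0.14 (adjusted p = 0.0119, and 0.0633 without CS2164_IR replicate 1). Of 7 glucuronic acid supply genes 2 fell with CS2164 (28.6%), among them UGP2, which makes UDP-glucose, at -0.63 ± 0.18 (adjusted p = 0.0256), a call that ended without the 2 distant libraries (0.249), with the compared groups alone (0.0979), and without CS2164 replicate 1 (0.0783) or control replicate 2 (0.151). The other was SLC35B1, a nucleotide transporter, at -0.48 ± 0.15 (adjusted p = 0.0299), which ended without the 2 distant libraries (0.0944), with the compared groups alone (0.116), and without CS2164 replicate 2, CS2164 replicate 3 or control replicate 2. SLC35D1, which carries UDP-glucuronic acid into the endoplasmic reticulum, fell in CS2164_IR against CS2164 at -0.63 ± 0.18 (adjusted p = 0.0357), a call that ended with upper-quartile scaling (0.0516), with the compared groups alone (0.0788), and without any 1 CS2164_IR library, CS2164 replicate 2 or 3, or IR replicate 2. Of 14 other bile acid genes 1 rose and 1 fell with CS2164 (14.3%): KLB, the co-receptor through which gut FGF19 restrains bile acid synthesis, at 0.49 ± 0.13 (adjusted p = 0.0168), and the sterol carrier SCP2 at -0.57 ± 0.16 (adjusted p = 0.0236). The KLB call ended with the compared groups alone (0.09997) and without control replicate 2 (0.0629), and that of SCP2 without the 2 distant libraries (0.186), with the compared groups alone (0.102), and without CS2164 replicate 1 (0.0713) or control replicate 2 (0.123). In CS2164_IR against CS2164 KLB fell, at -0.70 ± 0.13 (adjusted p = 0.00533), in every setting run.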

How the data were processed

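Poly-A RNA of xenograft tumours was sequenced as 12 libraries on an unstranded protocol, per the labels' protocols. Reads were handled with HISAT2 2.1.0 and HTSeq 0.9.1 on GRCh38, per the submitters' processing notes. The deposited read counts per gene are whole numbers and were tested as they stand. The deposited FPKM served for levels between genes. For 17185 genes the length implied by FPKM, counts and library totals was the same in every library with reads. That leaves the lengths themselves unchecked, since they were derived from the FPKM. Not given in the sources used here were the annotation release, the rule for overlapping genes and the handling of mouse reads. Genes passing filterByExpr (13521) were fitted with edgeR 4.0.16 in R 4.3.3 (TMM, robust quasi-likelihood, 12 libraries, no covariate), and p-values were adjusted by Benjamini-Hochberg. CPM are edgeR's after TMM. Positions come from GENCODE v29, promoters from RefSeq (54 of 74 members matched).

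The members, role lists and pathway lists were chosen with earlier results of these data known. Named members were those passing any comparison, the 12 of highest mean FPKM, the 2 most abundant of each role without a call, and a set of well-known enzymes always looked up. Of each pathway list up to 3 passing genes per comparison were named by adjusted p. Outside this rule, and chosen after their values were seen, stand ALDH1A1, RARA, RARB, RARG, NR1I2, NR1I3, AHR, POR, CYP26C1, CYP27B1, CYP4A11, CYP3A7-CYP3A51P, UGT1A3 and UGT2B17. Alternatives were scaling by RLE or by upper quartile, dropping the filter, a block for replicate number, DESeq2 1.42.0, fits of the compared groups alone, removal of each library's GC and length trend, each library left out in turn, and leaving out CS2164 replicate 1 with control replicate 2. Libraries with the same number deviated together with correlations of -0.145 to 0.149 across genes, so the number was not taken as a pairing. Results of 1 tested member and 1 transcription factor are not reported here by name, though both count in the totals.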

Additional observations from a re-analysis of the deposited data

How the results depend on the processing

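With CS2164 against control the count of CYP and UGT genes called was 1, and it was 2 with upper-quartile scaling (CYP3A5 added), 2 in DESeq2 (CYP2D6 added), 4 with the GC and length trends removed (CYP2D6, CYP2J2 and UGT2B7 added), and 1 to 4 when each library was left out in turn. With IR against control it was 1, and it was 2 without a filter, 2 in DESeq2 and 2 with the compared groups alone (CYP4F3 added each time), 3 with the trends removed (CYP4F3 and CYP27A1 added), 3 without CS2164 replicate 1 and control replicate 2 (CYP4F3 and CYP19A1 added), 0 with the replicate number as a block, where CYP26B1 had an adjusted p of 0.0761, and 0 to 3 when each library was left out. With CS2164_IR against control it was 0, and it was 1 without those 2 libraries (CYP4F3) and 0 to 1 when each was left out. In CS2164_IR against IR it was 0 in every setting run. In CS2164_IR against CS2164 it was 2, and it was 4 without a filter, 4 in DESeq2, 5 with the trends removed, 1 with the compared groups alone, 1 with the replicate block, which ended the call of CYP2C19 (0.076), and 0 to 4 when each library was left out. For the interaction it was 0, and it was 1 without a filter, 1 with the trends removed (CYP26B1 both times), 2 in DESeq2, 0 with the replicate block and 0 when each library was left out. Among the named genes of the other lists the block ended the calls of ADH5 (0.0707), ADH6 (0.0761) and NR1H4 (0.0707) with IR, CYB5R3 (0.0674) with CS2164, and SLC35D1 (0.0561) and NAT1 (0.0683) in CS2164_IR against CS2164. The causes of these shifts were not tested.

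Over all genes 2669 were called with CS2164 against control, of which 1409 were higher and 1260 lower. The count was 963 without the 2 distant libraries and 285 with the compared groups alone, and under upper-quartile scaling 1131 were higher and 1543 lower. The 59 calls with IR were 117 without a filter, 348 in DESeq2, 138 with the compared groups alone, 20 with the replicate block, 345 with the trends removed and 445 without the 2 distant libraries, and the 26 with CS2164_IR were 96, 318, 13, 39, 296 and 417 in the same order. The 1310 calls in CS2164_IR against CS2164, 511 higher and 799 lower, were 834 with the compared groups alone, 2542 with the trends removed, 3265 without the 2 distant libraries, and under upper-quartile scaling 750 were higher and 614 lower. The interaction had 0 calls, 60 without a filter, 67 with the trends removed, 162 without the 2 distant libraries and 639 in DESeq2. Leaving out each library in turn gave 621 to 2665 calls with CS2164 against control, 0 to 458 with IR, 0 to 436 with CS2164_IR and 310 to 2049 in CS2164_IR against CS2164.

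Single genes whose values turned sign were CYP2J2 with CS2164 against control, which was 0.44 with the trends removed, 0.14 without the 2 distant libraries and -0.13 to 0.13 when each library was left out, UGT2B7 in the same comparison, at -0.063 to 0.36 when each was left out, UGT2B4 in CS2164_IR against CS2164, at -0.25 to 0.062, and CYB5R3, an electron donor gene, with CS2164 against control, at -0.078 with the trends removed. Several group medians turned sign as well, among them that of all members with CS2164 (0.14 with the trends removed), those of the UGT2 genes (0.34 with CS2164 and 0.07 with IR in that setting) and that of the drug CYP genes with IR (-0.11 in 1 leave-one-out fit or more). Of the 28 named members tested, 22 with CS2164 against control, 24 with IR, 26 with CS2164_IR, 28 in CS2164_IR against IR, 21 in CS2164_IR against CS2164 and 26 for the interaction were called in none of the settings. Members near the limit of 3 counts, such as CYP1A1, CYP8B1, CYP4F2 and CYP21A2, have standard errors of 0.589 to 0.728 against control, so only large changes could be seen in them.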
